A study of Mus musculus with 6 samples.

Results

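Müller glia are the radial glial cells that span the whole thickness of the retina. They take up glutamate released by neurons and turn it into glutamine, buffer potassium, water and acid, return retinoid to cones, and supply lipoproteins to neurons. After injury to the retina they can become reactive, a state in which some of these homeostatic genes are known to be turned down while Gfap, an intermediate filament gene, is turned up. The homeostatic genes described here were 10 genes chosen by name from knowledge of this cell type: Glul, Rlbp1, Slc1a3, Aqp4, Kcnj10, Dkk3, Sox9, Car14, Apoe and Clu. Among 25202 genes that were above 0 in some library, 9 were these members, and Aqp4 is not analysed here.

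RNA-seq was performed on total retinal cells of wild type mice (C57BL/6 in the labels, C57BL/6J in the methods). There were 3 libraries in the NMDA + PBS group and 3 in the NMDA + SCF group. Every mouse received NMDA (2 μl, 100 mM) in the vitreous, an agonist of glutamate receptors that kills retinal ganglion cells, so both groups carry the same injury. A second intravitreal injection of 2 μl followed 2 days later. It held SCF (stem cell factor, the ligand of the receptor c-kit, 50 ng/μl) in the NMDA + SCF group and PBS in the other. Retinal cells were isolated 1 week after that injection. The labels give the age as postnatal week 5, and the methods give 4 weeks at the start. Neither gives the number of mice behind a library, so p-values measure the spread between these libraries, which may be technical. No uninjured library is compared, and the comparison asks whether the level of a gene differed between SCF and PBS after NMDA. In RNA of total retinal cells, fewer Müller glia and less RNA per cell cannot be told apart. The effect of the isolation on Müller glia was not tested.

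Values are in FPKM, fragments scaled to transcript length and to the fragments counted in the library, and were summed per gene over transcripts present in all 6 libraries. The clean reads ranged from 44925938 to 48783182 per library, and the fragments that entered the FPKM scale ranged from 3404335 to 4440579. The libraries were quantified on 2 different transcript lists. List A served the 3 NMDA + SCF libraries and NMDA + PBS replicate 1, and list B served NMDA + PBS replicates 2 and 3. The lists share 46933 Ensembl transcripts, while 7529 are particular to list A and 8966 to list B. The list and the treatment therefore overlap: 2 of the 3 controls have list B and no SCF library has it. For that reason each member is described against all 3 controls, then against NMDA + PBS replicate 1, the only control with the list of the SCF libraries.

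The members fell into 3 ranges of measured level. FPKM is scaled to length, so genes other than Rlbp1 and Apoe can be set side by side. Glul and Clu were by far the most abundant, at a mean of 3106 and 2421 FPKM in NMDA + SCF. Car14, Kcnj10, Slc1a3 and Sox9 stood at a mean between 26.9 and 100.9 FPKM there. Rlbp1 and Apoe stood at 10.9 and 6.46 FPKM, with few counted fragments. Both values do not give the level of the whole gene, as described below, so their place in the order is uncertain. In NMDA + PBS the order of these 8 genes by mean was the same (2687 FPKM for Glul, 1417 for Clu, 73.8 for Car14, 68.4 for Kcnj10, 47.8 for Slc1a3, 31.5 for Sox9, 8.61 for Rlbp1 and 4.52 for Apoe). Several neighbours in that order overlapped in NMDA + PBS: Clu at 2244 FPKM in replicate 2 lay above Glul at 1960 FPKM in the same library, and the ranges of Car14 and Kcnj10 crossed. In NMDA + SCF, Kcnj10 and Slc1a3 were the only neighbours among these 8 genes whose ranges crossed. Dkk3 had no fixed place, at 979.9 and 1007 FPKM in the 2 controls with list B and at 0.262 FPKM or less in the other 4 libraries.

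**Figure D1:**
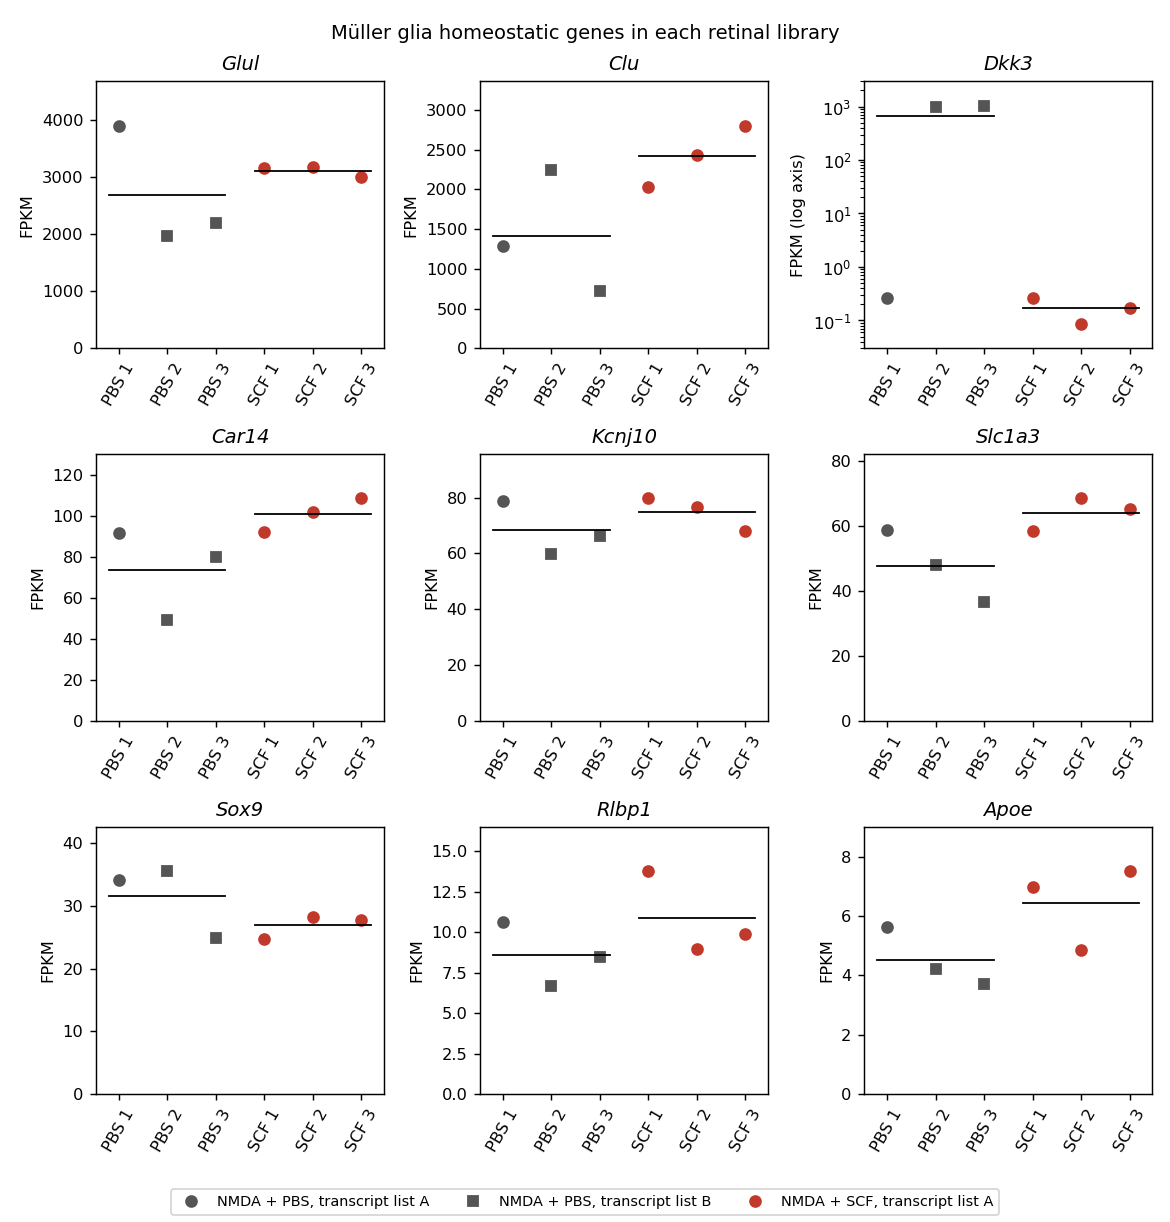
FPKM of each of the 9 measured genes in each library (points, with circles for transcript list A and squares for list B, grey for NMDA + PBS, red for NMDA + SCF, and a line at the group mean of 3 libraries; the axis starts at 0 except for Dkk3, which has a log axis). Glul ran from 1960 to 3899 FPKM in NMDA + PBS and from 2993 to 3178 FPKM in NMDA + SCF, and Dkk3 was high in the 2 list B libraries and at 0.262 FPKM or less in the 4 list A libraries, 1 of them a control.

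No member passed the test between NMDA + SCF and NMDA + PBS. Under limma with Benjamini-Hochberg adjustment, 0 of 9 members and 0% of the 25202 genes passed an adjusted p of 0.05, and the smallest adjusted p of a member was 0.536. The same held for the thresholds of the study's methods, 2-fold or more at an adjusted p of 0.001 or less. In this fit 0% of genes passed them. The paper does report differentially expressed genes at these thresholds, with qPCR for several of them. The 0% here is for limma on the transcripts shared by all 6 libraries, so it is not directly comparable. Only Dkk3, 1 of the 9 members, had an unadjusted p of at most 0.05, beside 9.22% of all genes. The log2 fold change was above 0 for 7 members and below 0 for Dkk3 and Sox9, where 49.1% of all genes lay above 0. The median over the 9 members was 0.31, beside -0.01 over all genes and 0.07 over the 14013 genes with a mean of at least 1 FPKM. Differences are on the scale of log2(FPKM + 1), which understates the change of low genes such as Apoe.

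Glul encodes glutamine synthetase, the enzyme by which Müller glia turn glutamate and ammonia into glutamine (chromosome 1, 153899944 to 153909723, plus strand, GRCm38). Its level was 3899, 1960 and 2202 FPKM in NMDA + PBS replicates 1 to 3 and 3148, 3178 and 2993 FPKM in NMDA + SCF replicates 1 to 3. The SCF libraries lay close together (3106 ± 99.4 FPKM, SD, n = 3) and inside the wide range of the controls (2687 ± 1057 FPKM, SD, n = 3), of which NMDA + PBS replicate 1 was the highest of all 6 libraries. Between the groups the log2 fold change was 0.28 (SE 0.35, adjusted p = 0.783 in limma, 95% interval -0.55 to 1.10). Its direction turned with the control chosen, since the difference was 0.58 log2 against NMDA + PBS replicates 2 and 3 and -0.33 log2 against replicate 1. Counting error was small beside these gaps, with 21236 to 36626 fragments per library.

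Slc1a3 encodes the glutamate transporter GLAST, which carries glutamate into Müller glia (chromosome 15, 8634124 to 8710764, minus strand, GRCm38). It stood at 58.7, 48.0 and 36.7 FPKM in NMDA + PBS replicates 1 to 3 and at 58.6, 68.6 and 65.2 FPKM in NMDA + SCF replicates 1 to 3. The groups touched at one point, because NMDA + PBS replicate 1 and NMDA + SCF replicate 1 differed by less than the spread within either group. Over all libraries the log2 fold change was 0.44 (SE 0.21, unadjusted p = 0.0723, adjusted p = 0.545 in limma). Against NMDA + PBS replicate 1 the difference was 0.12 log2, and against replicates 2 and 3 it was 0.60 log2.

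Car14 encodes a carbonic anhydrase of the cell membrane that serves acid and carbon dioxide handling (chromosome 3, 95897768 to 95904691, minus strand, GRCm38). Its level was 91.7, 49.6 and 80.0 FPKM in NMDA + PBS replicates 1 to 3 and 92.2, 101.9 and 108.7 FPKM in NMDA + SCF replicates 1 to 3. It was the only member higher in every SCF library than in every control, beside 7.63% of all genes with that order, and the lowest SCF library lay just above NMDA + PBS replicate 1. The log2 fold change was 0.49 (SE 0.25, unadjusted p = 0.0880, adjusted p = 0.548 in limma), and the exact two-sided permutation test gave p = 0.1, the smallest that 3 against 3 libraries allow. The difference from NMDA + PBS replicate 1 alone was 0.13 log2, and without NMDA + PBS replicate 2 the log2 fold change was 0.23.

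Kcnj10 encodes Kir4.1, the inward rectifying potassium channel of Müller glial endfeet (chromosome 1, 172341210 to 172374085, plus strand, GRCm38). It was the steadiest member among the controls (SD of 0.20 log2), at 78.8, 59.9 and 66.4 FPKM in NMDA + PBS replicates 1 to 3 and 79.7, 76.5 and 68.2 FPKM in NMDA + SCF replicates 1 to 3. With all controls the log2 fold change was 0.13 (SE 0.17, adjusted p = 0.788 in limma, 95% interval -0.27 to 0.54), and the interval reached 1.46-fold at most. Against NMDA + PBS replicate 1 the difference was -0.08 log2. Relative to Kcnj10 in the same library, Glul stood at 49.5, 32.7 and 33.2 times in NMDA + PBS replicates 1 to 3 and at 39.5, 41.5 and 43.9 times in NMDA + SCF replicates 1 to 3. Glul was thus highest in NMDA + PBS replicate 1 also by this ratio, in which the scaling of the library cancels.

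Sox9, a transcription factor of Müller glia and astrocytes (chromosome 11, 112782224 to 112787760, plus strand, GRCm38), was the member with a lower mean in NMDA + SCF apart from Dkk3. It stood at 34.1, 35.5 and 24.9 FPKM in NMDA + PBS replicates 1 to 3 and at 24.8, 28.3 and 27.7 FPKM in NMDA + SCF replicates 1 to 3. The lowest control lay at the level of the lowest SCF library, so the groups overlapped. Between them the log2 fold change was -0.21 (SE 0.19, adjusted p = 0.710 in limma). It was below 0 against either kind of control, at -0.33 log2 against NMDA + PBS replicate 1 and -0.14 log2 against replicates 2 and 3.

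Clu encodes clusterin, a secreted chaperone and apolipoprotein (chromosome 14, 65968483 to 65981547, plus strand, GRCm38), and had the highest log2 fold change of the members. Its level was 1288, 2244 and 717.3 FPKM in NMDA + PBS replicates 1 to 3 and 2026, 2436 and 2801 FPKM in NMDA + SCF replicates 1 to 3. NMDA + PBS replicate 2 reached into the SCF range, and the other 2 controls lay below every SCF library. For Clu the log2 fold change was 0.91 (SE 0.43, unadjusted p = 0.0724, adjusted p = 0.545 in limma, 95% interval -0.11 to 1.93). Unlike the other members above 0, Clu had nearly the same difference against both kinds of control. It was 0.90 log2 against NMDA + PBS replicate 1 and 0.92 log2 against replicates 2 and 3. The 0.92 averages 2 controls that lay far apart, at 2244 and 717.3 FPKM, so its nearness to 0.90 says little. Without NMDA + PBS replicate 3 the log2 fold change of Clu was 0.50, and without replicate 2 it was 1.32. The ratio of Clu to Glul in the same library ran from 0.326 to 1.15 in NMDA + PBS and from 0.644 to 0.936 in NMDA + SCF.

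Markers of other glia moved with Clu from library to library. C1qa, a complement gene of microglia, stood at 72.3, 155.0 and 16.7 FPKM in NMDA + PBS replicates 1 to 3 and at 109.4, 142.0 and 153.5 FPKM in NMDA + SCF replicates 1 to 3. Gfap, which marks astrocytes and reactive Müller glia, stood at 46.5, 261.3 and 32.3 FPKM and at 86.3, 181.8 and 159.7 FPKM in the same order. In both genes, as in Clu, NMDA + PBS replicate 3 was the lowest and replicate 2 the highest control. The microglial list summed to between 62.7 and 320.2 FPKM in NMDA + PBS and between 241.7 and 333.1 FPKM in NMDA + SCF, with 7 of 10 genes measured and 5 of these above 0 in log2 fold change. Its receptor gene Cx3cr1 was listed at 0 in all 3 SCF libraries and in 1 control, and stood at 0.0654 FPKM or less in the other 2. The reactive glial list summed to between 56.7 and 349.5 FPKM in NMDA + PBS and between 118.4 and 214.4 FPKM in NMDA + SCF, with 7 of 9 genes measured and 3 of these above 0. The astrocyte list, which also holds Gfap, summed to between 43.9 and 281.6 FPKM in NMDA + PBS and between 117.1 and 221.7 FPKM in NMDA + SCF. The pigment epithelium list summed to between 210.7 and 861.3 FPKM and between 748.2 and 978.3 FPKM, with 7 of 8 genes measured and Ttr as nearly all of it, while its defining gene Rpe65 stayed at 1.26 FPKM or less in every library. The part of these cell types in the level of Clu was not tested.

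**Figure D2:**
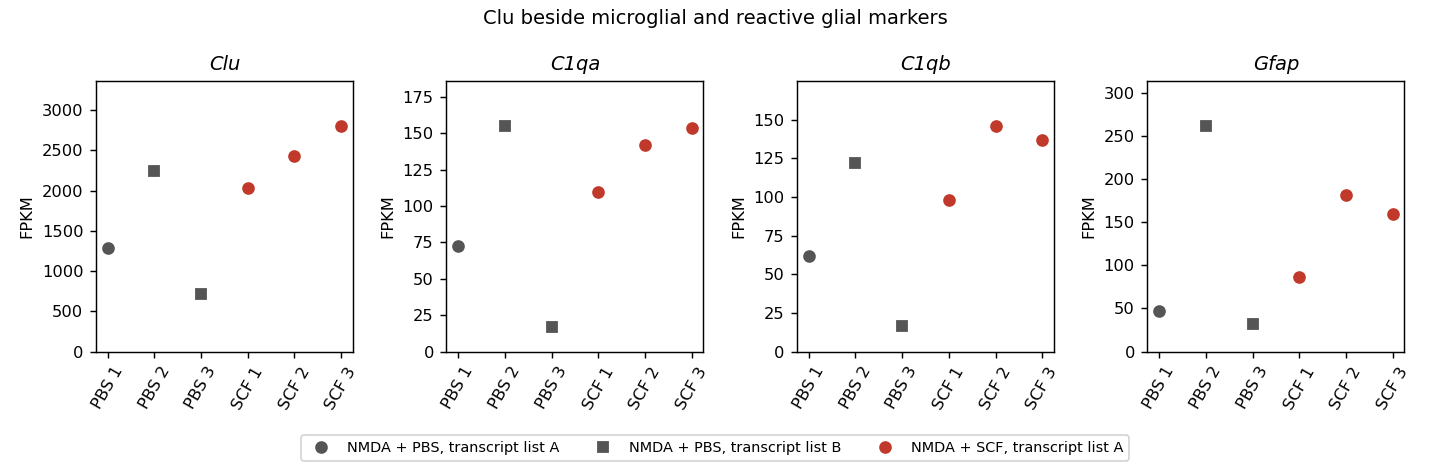
FPKM of Clu, C1qa, C1qb and Gfap in each library (grey for NMDA + PBS, red for NMDA + SCF, circles for transcript list A, squares for list B). NMDA + PBS replicate 3 was the lowest library in all 4 genes (717.3 FPKM for Clu, 16.7 for C1qa, 16.6 for C1qb and 32.3 for Gfap), and NMDA + PBS replicate 2 was the highest control.

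Dkk3 encodes a secreted protein related to the Dickkopf inhibitors of Wnt signalling (chromosome 7, 112116017 to 112159057, minus strand, GRCm38). Its level was 0.262, 979.9 and 1007 FPKM in NMDA + PBS replicates 1 to 3 and 0.261, 0.0856 and 0.172 FPKM in NMDA + SCF replicates 1 to 3. This was 13090 and 15018 counted fragments in the 2 list B libraries and between 1 and 3 fragments in each of the 4 list A libraries. Every SCF library lay below every control, beside 6.45% of all genes with that order, yet NMDA + PBS replicate 1 lay with the SCF libraries and not with the other controls. NMDA + PBS replicate 1 and NMDA + SCF replicate 1, which decide that order, had 3 counted fragments each. The log2 fold change over all libraries was -6.52 (SE 2.38, unadjusted p = 0.0280, adjusted p = 0.536 in limma), and against NMDA + PBS replicate 1 it was -0.11. At so few fragments the fitted value depends on the pseudocount, and it was -8.08 with a pseudocount of 0.1. Dkk3 was 1 of 7 genes for which both list B libraries lay over 100-fold above every list A library on the scale of FPKM + 1. Chgb, Wdr6, Actr1a, Bcap31 and Kif3b were among the 7, and 4 genes had the opposite split. Dkk3-201 is the only Ensembl transcript of Dkk3 in either list, and it is in both. Its level followed the list in all 6 libraries. With a term for the list in the fit, the log2 difference between the groups was -0.11.

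Rlbp1 encodes CRALBP, the retinaldehyde binding protein of Müller glia and pigment epithelium (chromosome 7, 79374870 to 79387048, minus strand, GRCm38), and Apoe encodes apolipoprotein E (chromosome 7, 19696109 to 19699188, minus strand, GRCm38), which microglia also make. Rlbp1 stood at 10.7, 6.69 and 8.49 FPKM in NMDA + PBS replicates 1 to 3 and at 13.8, 8.99 and 9.92 FPKM in NMDA + SCF replicates 1 to 3. Apoe stood at 5.63, 4.23 and 3.71 FPKM and at 6.99, 4.87 and 7.51 FPKM in the same order. Both sets of groups overlapped. The log2 fold change was 0.31 for Rlbp1 (SE 0.26, adjusted p = 0.688 in limma) and 0.43 for Apoe (SE 0.27, adjusted p = 0.617 in limma), and against NMDA + PBS replicate 1 it was 0.01 and 0.15. These levels rest on 24 to 32 counted fragments per library for Rlbp1 and 14 to 22 for Apoe, and counting alone gives a coefficient of variation of up to 20.4% and 26.7%.

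The low values of Rlbp1 and Apoe do not give the level of the whole gene. Apoe has 4 transcripts with a consensus coding sequence (CCDS) in GENCODE M21, and 0 of them are in both lists. Its largest measured transcript, Apoe-207, is not one of these 4 and shares 87.2% of its stretches of 50 bases with each of Apoe-201, Apoe-205 and Apoe-206. Rlbp1 has 2 such transcripts, of which Rlbp1-202 is in both lists, at 0.704 FPKM or less, and shares 93.5% of its stretches of 50 bases with the other, Rlbp1-201. Most of the measured Rlbp1 came from Rlbp1-207, a transcript with a retained intron, at between 5.16 and 8.62 FPKM. Reads of near-identical transcripts can be split in counting, so both levels are uncertain. Such loss was common in these files, since 30.9% of the 14402 genes with a consensus coding sequence had no transcript with such a sequence in both lists.

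**Figure D3:**
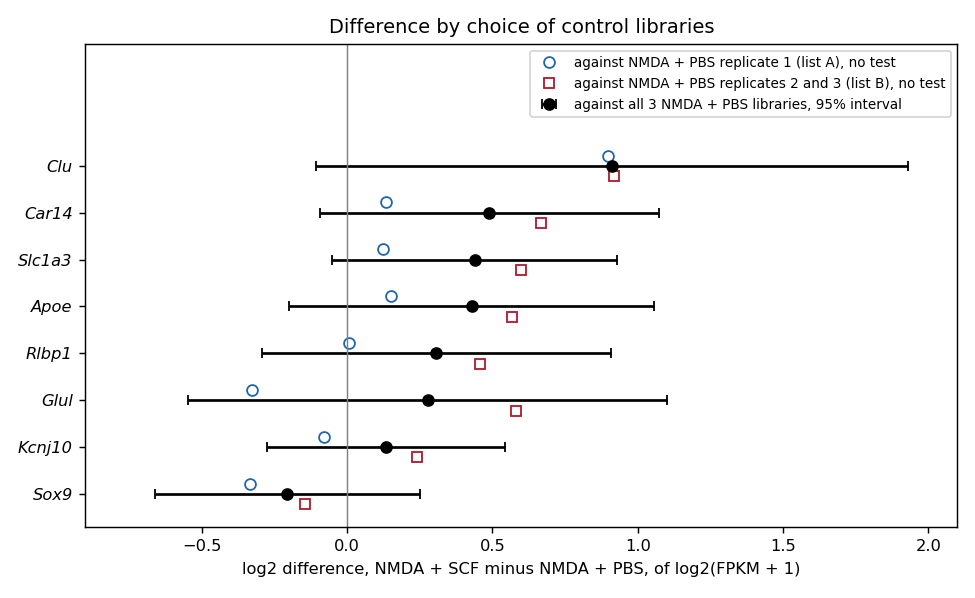
Difference of each gene on the log2(FPKM + 1) scale between NMDA + SCF and all 3 NMDA + PBS libraries (black, with the 95% interval from limma), NMDA + PBS replicate 1 alone (open blue circles, no test) and NMDA + PBS replicates 2 and 3 (open red squares, no test), without Dkk3. Every black interval crosses 0, and Clu is the gene whose 3 values nearly coincide, at 0.91, 0.90 and 0.92. The 0.92 averages NMDA + PBS replicates 2 and 3, which lay far apart for Clu, at 2244 and 717.3 FPKM.

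The position of NMDA + PBS replicate 1 recurred over the members. In 6 of them (Glul, Rlbp1, Slc1a3, Kcnj10, Car14 and Apoe) all 4 list A libraries lay above both list B libraries, beside 10.9% of all genes and 33.9% of genes with a mean of at least 10 FPKM, and Dkk3 had the reverse order, beside 14.4% of all genes. NMDA + PBS replicate 1 lay inside the range of the SCF libraries for 4 members, above it for 3 and below it for 2, where 52.6% of all genes had it inside. The median over the members of the difference between NMDA + SCF and NMDA + PBS replicate 1 was 0.01 log2 (0.06 over all genes), and that against replicates 2 and 3 was 0.57 log2 (-0.03 over all genes). FPKM is relative to the fragments counted in a library, and the list B libraries had more of these, 3977112 and 4440579 beside 3404335 to 3479958 in list A. When fragments were scaled to clean reads instead, a choice made after the values were seen, all list A libraries lay above both list B libraries for 2 members, Glul and Slc1a3, beside 6.38% of all genes, the median log2 fold change of the members was 0.12 beside -0.08 over all genes, and 0 members had every SCF library above every control, beside 3.81% of all genes.

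Over all 9 members the summed level was 5467, 5388 and 4146 FPKM in NMDA + PBS replicates 1 to 3 and 5451, 5903 and 6082 FPKM in NMDA + SCF replicates 1 to 3, with an exact two-sided permutation p of 0.2. NMDA + PBS replicate 1 lay at the level of NMDA + SCF replicate 1. Without Dkk3, which was left out after its values were seen, the sum was 5467, 4409 and 3139 FPKM and 5451, 5903 and 6081 FPKM, and NMDA + PBS replicate 3 was the lowest library. Glul and Clu make up nearly all of this sum, so it says little about the other members.

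Single transcripts were then read, and their counts lay near those over all transcripts. Of 37 transcripts of the members in the files, 32 are in both lists. In 3 of these every SCF library was higher than every control (6.32% of all transcripts) and in 2 every SCF library was lower (Dkk3-201 and Slc1a3-207), beside 6.79% of all transcripts. All 3 higher transcripts, Car14-204, Glul-205 and Slc1a3-204, are annotated as retained introns, of which the members had 11. The share among all retained introns was not computed, so no pattern of retained introns can be read from this count. Slc1a3-204 rested on at most 1 fragment per library. Across all transcripts, 7.98% had an unadjusted p of at most 0.05 and 0% an adjusted p of at most 0.05.

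Car14-204 was the clearest of these. It stood at 7.16, 7.41 and 7.78 FPKM in NMDA + PBS replicates 1 to 3 and at 12.2, 16.6 and 17.6 FPKM in NMDA + SCF replicates 1 to 3, which was 24 to 34 and 41 to 60 counted fragments. Here the 3 controls lay together whichever list they had. At so few fragments such nearness can arise by counting alone, and a dependence on the list cannot be judged from it. The log2 fold change of Car14-204 was 0.95 (SE 0.22, unadjusted p = 0.00304, adjusted p = 0.591 in limma over all transcripts). The coding transcript Car14-201 stood at 81.0, 38.5 and 66.7 FPKM and at 76.5, 82.1 and 84.6 FPKM in the same order, and its groups overlapped. Retained introns made up 9.23, 16.1 and 10.97% of the summed Car14 level in NMDA + PBS replicates 1 to 3 and 13.9, 16.3 and 18.0% in NMDA + SCF replicates 1 to 3, so the share overlapped through NMDA + PBS replicate 2. Glul-205 stood at 34.2, 37.9 and 28.3 FPKM and at 56.8, 39.7 and 48.4 FPKM (log2 fold change 0.51, SE 0.21, adjusted p = 0.591 in limma), and retained introns made up less than 2% of Glul in every library. Car14-204 lies within the span of Car14-201, and how reads were divided between them is not given in the sources used here.

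**Figure D4:**
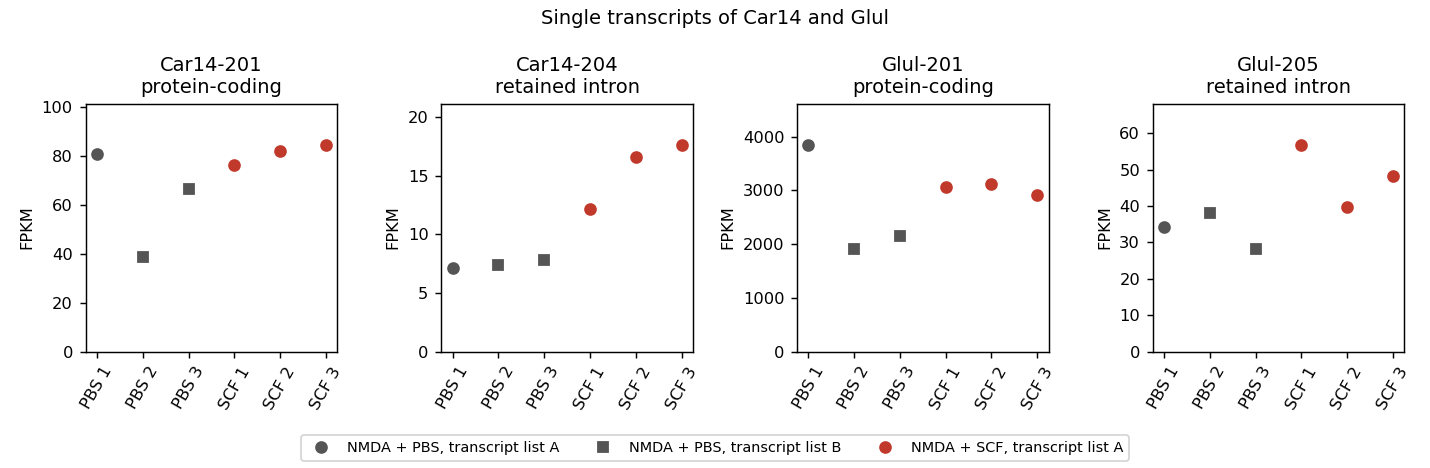
FPKM of 4 single transcripts in each library (grey for NMDA + PBS, red for NMDA + SCF, circles for transcript list A, squares for list B). For Car14-204 all controls lie between 7.16 and 7.78 FPKM and all SCF libraries between 12.2 and 17.6 FPKM, while for Glul-201 NMDA + PBS replicate 1 lies above the SCF libraries.

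Genes with related roles were taken from 6 lists with 50 genes, of which 47 had a value. Of the 47, 0 had an adjusted p of at most 0.05 in limma and the smallest adjusted p was 0.536. Past an unadjusted p of 0.05 lay 8 higher genes (4.33% of all genes) and 1 lower gene (4.9% of all genes). The log2 fold change was above 0 for 26 genes, with a median of 0.04. Groups that did not overlap were found for 11 higher genes (7.63% of all genes) and 4 lower genes (6.45%).

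In glutamate and glutamine handling no gene of 6 had an unadjusted p of at most 0.05. Got1, a cytosolic aspartate aminotransferase, stood at 48.0, 40.6 and 19.7 FPKM in NMDA + PBS replicates 1 to 3 and at 53.4, 50.8 and 67.3 FPKM in NMDA + SCF replicates 1 to 3 (log2 fold change 0.73, SE 0.33). Slc38a1, a glutamine transporter, had the opposite order, at 7.06, 8.92 and 14.3 FPKM and at 6.61, 5.02 and 5.92 FPKM (log2 fold change -0.65, SE 0.29). In both genes the groups lay apart, and NMDA + PBS replicate 1 was the control nearest to the SCF range. Without NMDA + PBS replicate 3 the log2 fold changes were 0.35 for Got1 and -0.39 for Slc38a1. In retinoid handling 1 gene of 6 had an unadjusted p of at most 0.05, Rdh11, a retinol dehydrogenase, at 32.0, 25.8 and 24.5 FPKM and at 33.4, 39.3 and 38.1 FPKM (log2 fold change 0.42, SE 0.18).

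Among 11 measured genes for water, potassium and acid handling and for the complex that anchors Kir4.1 at the endfoot, 2 were higher and 1 was lower at an unadjusted p of at most 0.05, of which 2 are described. Dmd, the gene of dystrophin, stood at 10.2, 8.67 and 14.3 FPKM in NMDA + PBS replicates 1 to 3 and at 4.78, 5.84 and 3.57 FPKM in NMDA + SCF replicates 1 to 3 (log2 fold change -1.07, SE 0.27, unadjusted p = 0.00546, adjusted p = 0.536 in limma). Dag1, the gene of dystroglycan, the membrane partner of dystrophin, stood at 16.0, 18.8 and 9.51 FPKM and at 23.8, 23.7 and 24.3 FPKM (log2 fold change 0.71, SE 0.26). In both genes the groups lay apart with NMDA + PBS replicate 1 on the side of the other controls, unlike in Glul or Kcnj10.

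In lipoprotein handling no gene of 8 had an unadjusted p of at most 0.05. Lrp1, a receptor for apolipoprotein E, stood at 12.03, 40.8 and 39.8 FPKM in NMDA + PBS replicates 1 to 3 and at 20.01, 18.3 and 21.1 FPKM in NMDA + SCF replicates 1 to 3, so it was high in the list B libraries. Abca8a, a transporter of the ABC family, stood at 0.870, 4.43 and 3.47 FPKM and at 5.47, 3.40 and 5.35 FPKM, and its groups overlapped. In the list of transcription factors and Notch genes 2 of 11 were higher at an unadjusted p of at most 0.05. Rax, a homeobox factor of Müller glia and photoreceptors, was listed at 0 in both list B libraries and stood at 305.0 FPKM in NMDA + PBS replicate 1 and at 373.5, 381.5 and 383.4 FPKM in NMDA + SCF, the reverse of Dkk3. Nfix, a nuclear factor I gene, stood at 0.847, 2.08 and 2.51 FPKM and at 3.99, 3.93 and 3.33 FPKM (log2 fold change 0.80, SE 0.34).

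Of the Wnt modulators related to Dkk3, 5 of 7 had a value and 3 were higher at an unadjusted p of at most 0.05. Sfrp1, a secreted Wnt inhibitor, stood at 6.65, 8.86 and 5.61 FPKM in NMDA + PBS replicates 1 to 3 and at 34.8, 10.1 and 44.6 FPKM in NMDA + SCF replicates 1 to 3 (log2 fold change 1.73, SE 0.51, adjusted p = 0.536 in limma). The summed lens list had the same order within the SCF group, at 5105, 459.7 and 9566 FPKM, beside 23.5 to 304.6 FPKM in NMDA + PBS, with all 10 measured genes of 11 above 0 in log2 fold change, and its part in Sfrp1 was not tested. The ciliary body and iris list summed to between 34.5 and 47.1 FPKM in NMDA + SCF and between 18.0 and 25.7 FPKM in NMDA + PBS. Sfrp5, of the same family, stood at 2.01, 3.97 and 1.66 FPKM and at 5.53, 4.69 and 5.63 FPKM. Dkk1, a Wnt inhibitor of the Dickkopf family, was listed at 0 in all controls and stood at 0.361, 0.474 and 0.238 FPKM in NMDA + SCF, too low for a fold.

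**Figure D5:**
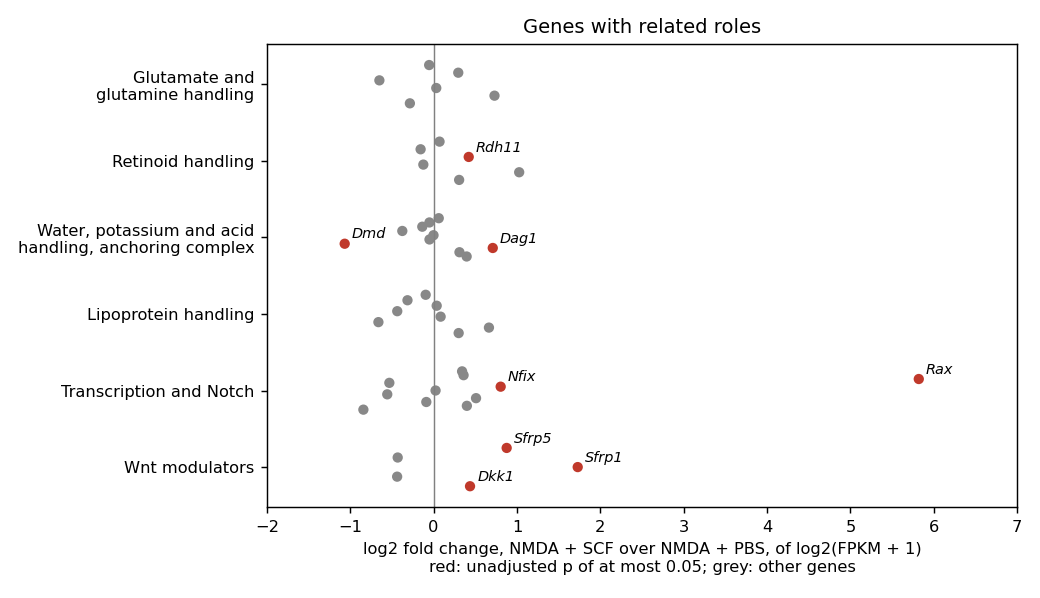
Log2 fold change of log2(FPKM + 1) between NMDA + SCF and NMDA + PBS for 46 of the 47 genes in 6 lists of related roles, 1 point per gene, with the 8 of them at an unadjusted p of at most 0.05 in red and named. Most genes lie near 0, Dmd is the only named gene below 0, and Rax, at 5.82, is listed at 0 in both list B libraries.

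The promoters of the members were read because Sox9 is itself a DNA-binding protein of the SOX family. The 250 bases upstream of a gene start were available from RefSeq (GRCm38.p6) for 6 members, Glul, Kcnj10, Car14, Apoe, Rlbp1 and Slc1a3. Of 8 letter strings searched on both strands, ACAAAG, whose reverse complement reads CTTTGT, is the core letter string of SOX factors, and ACAATG, whose reverse complement reads CATTGT, is a close variant of it. ACAAAG is present in 16.5% of 32851 windows of this length and ACAATG in 10.7%. Among the members, 1 of 3 windows of Apoe, the one before the start of the gene, holds both, its other 2 hold neither, and the window of Rlbp1 holds ACAAAG. The windows with a match are given with these letters in capitals as they appear on the gene's strand, from chr7:19699189-19699438 (minus strand) and chr7:79387028-79387277 (minus strand).
Apoe: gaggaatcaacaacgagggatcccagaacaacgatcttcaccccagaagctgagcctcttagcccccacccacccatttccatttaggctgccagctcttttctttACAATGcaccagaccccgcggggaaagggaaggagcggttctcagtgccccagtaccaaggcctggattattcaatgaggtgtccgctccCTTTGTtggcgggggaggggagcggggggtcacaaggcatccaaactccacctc
Rlbp1: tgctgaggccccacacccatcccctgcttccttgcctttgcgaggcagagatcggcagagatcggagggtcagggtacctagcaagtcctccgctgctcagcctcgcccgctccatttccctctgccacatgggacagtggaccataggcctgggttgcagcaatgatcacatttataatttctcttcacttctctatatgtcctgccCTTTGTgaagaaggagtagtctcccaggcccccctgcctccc
The windows of Glul, Kcnj10, Car14 and Slc1a3 hold neither string. A match of these letters is a description of the sequence and not a binding site, and nothing about Sox9 in these libraries follows from it.

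The genes whose pattern over the 6 libraries was most like the mean of the 9 members, by root mean square distance of centred log2(FPKM + 1) among 4501 genes with a mean of at least 10 FPKM, were Dnmt3a, Ncapd2, Ddit3, Rian and Cops5, with distances of 0.0721 to 0.0931. Dnmt3a stood at 9.18, 14.1 and 12.8 FPKM in NMDA + PBS replicates 1 to 3 and at 9.28, 8.46 and 8.93 FPKM in NMDA + SCF replicates 1 to 3, high in the list B libraries as Dkk3 was. That is the reverse of Glul, Rlbp1, Slc1a3, Kcnj10, Car14 and Apoe, which were lower in both list B libraries than in every list A library. Without Dkk3, a choice made after its values were seen, the 5 nearest genes were Mreg, Ap3s2, Arl2bp, Tsnax and Nosip, with distances of 0.020004 to 0.0392. Mreg stood at 154.1, 124.5 and 111.1 FPKM and at 159.7, 161.7 and 165.1 FPKM, with NMDA + PBS replicate 1 near the SCF libraries. In Mreg every SCF library also lay above every control.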

How the data were processed

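RNA-seq libraries of mouse retinal cells, 3 with NMDA + PBS and 3 with NMDA + SCF, were used. The authors deposited FPKM per transcript for each library, made from oligo (dT) selected mRNA sequenced on an Illumina HiSeq, and separately the clean read counts of each library; the aligner and counter are not given in the sources used here. Multiplied by transcript length, 98.4 to 98.5% of FPKM values were whole multiples of 1 fragment (tolerance 0.05), which gave the fragments quoted. Transcript positions equalled GENCODE M21 (GRCm38) for 98.2% of 63345 transcripts found there, and coordinates are given on that build. Unnamed merged transcripts, 8.85 to 11.4% of the FPKM of a library, were left out.

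FPKM was summed per gene over Ensembl transcripts in both transcript lists, and log2(FPKM + 1) was fitted with limma 3.58.1 (R 4.3.3, variance trend, condition only, all 6 libraries) over 25202 genes with Benjamini-Hochberg adjustment. The script was tested on simulated data. Single transcripts were fitted in the same way, an analysis added after the values were seen. Python 3.11.15 served for tables and plots. The members and lists were chosen with earlier results of these data known. The genes named are all members, the genes of each related list with an unadjusted p of at most 0.05 (or else its most abundant gene and its extremes of log2 fold change at a mean of at least 1 FPKM), and the 5 genes most like the members; values of a few of these are not reported here. Marker genes and the genes split by list were named after their values were seen. Alternatives were a pseudocount of 0.1, a filter at 1 FPKM, other scalings, other sets of transcripts, voom on recovered fragments, a term for the transcript list, a replicate block and each library left out. Intervals and fragment numbers cover counting error or the spread of these libraries only.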

Additional observations from a re-analysis of the deposited data

How the results depend on the processing

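The direction and the side of the adjusted threshold, which leave the size aside, held in 140 of 144 settings over the 9 members. The exceptions were Glul (-0.33) and Kcnj10 (-0.078) with a term for the transcript list, where NMDA + PBS replicate 1 is the sole control within its list and is assumed to vary like the other libraries (adjusted p = 0.934 and 0.962 in limma), Kcnj10 (-0.070) with fragments scaled to clean reads, and Dkk3 without NMDA + PBS replicate 1 (-9.73, adjusted p = 0.000135 in limma, beside 0.536 with all libraries), where list and group coincide. In that fit 849 genes had an adjusted p of at most 0.05, and 4 members, Glul, Slc1a3, Dkk3 and Car14, had an unadjusted p of at most 0.05, as did 17.5% of all genes. Lrp1 turned to 0.67 with the list as a term, and without NMDA + PBS replicate 1 Lrp1 and Rax also passed an adjusted p of 0.05. Leaving out 1 library also moved 7 members by over 1.5 times: Glul to 0.58, 0.08 and 0.17 without NMDA + PBS replicates 1, 2 and 3, Kcnj10 to 0.24 and 0.04 without NMDA + PBS replicates 1 and 2 and to 0.09 without NMDA + SCF replicate 1, Rlbp1 to 0.16 without NMDA + PBS replicate 2 and 0.14 without NMDA + SCF replicate 1, Slc1a3 to 0.26 without NMDA + PBS replicate 3, Sox9 to -0.11 and -0.36 without NMDA + PBS replicates 2 and 3, and Car14 and Clu as given with their values. Among related genes, Dag1 moved to 0.44 without NMDA + PBS replicate 3 and Nfix to 0.53 without replicate 1. Abca8a moved from 0.66 to 0.20 without NMDA + PBS replicate 1. Lrp1 moved from -0.44 to -0.99, -0.15 and -0.17 without NMDA + PBS replicates 1, 2 and 3. With the list as a term, Dkk3 moved from -6.52 to -0.11, Rlbp1 from 0.31 to 0.0078 and Slc1a3 from 0.44 to 0.12. Car14 moved from 0.49 to 0.13 and Apoe from 0.43 to 0.15 in that fit. Sox9 moved from -0.21 to -0.33, and Clu stayed at 0.90 beside 0.91. Among related genes in that fit, Rax moved from 5.82 to 0.31, Abca8a to 1.60, Nfix to 1.36, Got1 to 0.24, Slc38a1 to -0.24 and Rdh11 to 0.20. The median log2 fold change of the members was 0.12 with clean reads, 0.0078 with the list as a term, and between 0.16 (without NMDA + PBS replicate 2) and 0.57 (without replicate 1) when a library was left out. Members with an unadjusted p of at most 0.05 numbered 2 with voom (Slc1a3 and Clu, beside 9.99% of genes, with 2 genes at an adjusted p of at most 0.05), 0 with the list as a term, and between 0 (without any 1 of the SCF libraries) and 4 when a library was left out. Genes with an unadjusted p of at most 0.05 went from 2324 to 1454 with protein-coding transcripts only, and ranged from 1214 to 4404 when a library was left out (1430 without NMDA + SCF replicate 1, 1320 without replicate 2, 1214 without replicate 3 and 4404 without the first control). Genes past the thresholds of the study's methods ranged from 0 to 55, the latter without NMDA + PBS replicate 1. The cause of these shifts was not tested.

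No pairing by replicate number was seen, as same-numbered libraries had deviations from their group means correlated at -0.04, -0.04 and -0.06 across genes. The deviations of the controls also hold the split by transcript list, so this check cannot exclude a pairing. The replicate block left 1 member and 1856 genes at an unadjusted p of at most 0.05, a median of 0.31 for the members and 0 genes past the study's thresholds, and it changed no other call. With 3 libraries a group an exact permutation p cannot go below 0.1, and Rlbp1 and Apoe are limited by their few fragments. For the summed level, the pseudocount, the filter, the block and the list as a term gave no value.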
